A study of Mus musculus with 67 samples.

Results

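Chromosome 3 is the mouse autosome on which a change of copy number was called in the largest number of aphidicolin-treated cells of this study, and that ranking is how it was chosen. All 793 bins that the deposited tables list for chromosome 3 were taken, of 13103 bins over the genome. After bins with values in too few cells were left out, 782 bins gave 156 windows of 1 Mb, from chr3:3000001-159000000 on mm9. The cells were single blastomeres of mouse embryos labelled BDF1, cultured in vitro in CZB medium and collected at the 8-cell stage. They were profiled by scRepli-seq, which amplifies and sequences the genome of a single cell, so that read density along a chromosome follows DNA copy number. During the 4-cell stage the embryos were held in aphidicolin at 75 ng/ml or in the solvent DMSO without it. By their labels both groups otherwise shared strain, culture and stage. The DMSO group held 20 cells of 3 embryos (4, 8 and 8 cells) and the Aphidicolin group 47 cells of 6 embryos (8 cells each, and 7 in Aphidicolin 6). Cells carry the number of their library and embryos a number within their treatment, and the embryo is the replicate.

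Aphidicolin blocks the replicative DNA polymerases, and low doses slow replication forks without stopping them. Cells that enter mitosis with DNA not fully replicated can break a chromosome or fail to separate its copies, and chromosomal regions prone to such breaks are known as fragile sites. A chromosome, or an arm piece without a centromere, that goes to the wrong daughter cell leaves a gain in that cell and a loss in its sister. Mouse chromosome 3 is acrocentric: its centromere lies at the start of the coordinate scale, so a piece that runs from a break to the high end of the scale lacks the centromere. Below, proximal means toward the centromere and distal toward the far end.

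Each cell's values were centred on its autosomal median, and a profile shared by the cells was removed. Levels are given as log2 values, where 0 stands for 2 copies, or as copies computed from them. The count of 2 is an assumption, since relative read density cannot tell a whole set of chromosomes more or less. A segment of at least 10 Mb was called gained above 0.32 and lost below -0.42. Read totals ran from 0.751 to 2.88 M per cell, and the median read count of a 1-Mb window was between 278 and 1180 over the cells. Counting alone gives a window at the median depth an error of 0.05 in log2. The level of X, as the median over cells, was -0.25 in DMSO and -1.04 in Aphidicolin, so the groups also differed in X level. Embryo means of X ran from -0.30 to -0.21 in DMSO and from -2.98 to -0.93 in Aphidicolin, without overlap. X level and treatment therefore cannot be told apart in these embryos. Single cells did overlap, from -0.39 to -0.14 in DMSO and from -9.44 to 0.13 in Aphidicolin. Cell 46 of Aphidicolin 3, at -9.28, and cells 69 and 72 of Aphidicolin 6, at -8.36 and -9.44, drew the X means of their embryos down. All 67 cells carried the same collection window in the metadata.

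A gain or loss on chromosome 3 was called in 31 of 47 Aphidicolin cells (65.96%, exact 95% interval 50.7% to 79.1%) and in 0 of 20 DMSO cells, which allows a share of up to 16.8% (exact interval). These counts rest on the removal of the common profile: in the values as deposited 37 Aphidicolin and 14 DMSO cells had a call. The intervals cover counting error only and treat cells of the same embryo as independent. Over all autosomes and cells, the share of cell and chromosome pairs with a call was 41.8% in Aphidicolin and 3.16% in DMSO. Since chromosome 3 was picked for its calls, these values describe it and no test was made on them. Chromosome 2 came next, with calls in 30 Aphidicolin cells, and the other 18 autosomes ran from 10 to 30 cells with a median of 18. Relative to its length, chromosome 3 did not lead: it had 19.9 called cells per 100 windows, against 23 for chromosome 15, 22.4 for chromosome 19 and 21.2 for chromosome 12.

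By embryo, the share of called cells was 75% in Aphidicolin 1, 2 and 3, 37.5% in Aphidicolin 4, 50% in Aphidicolin 5 and 85.7% in Aphidicolin 6. The mean over embryos was 66.4% ± 18.4 (SD, n = 6). With the common profile removed, every Aphidicolin embryo had cells with a call and none of the 3 DMSO embryos did, while in the values as deposited all 3 DMSO embryos had such cells. Gains were called in 15 cells and losses in 16, and 0 cells had both. In the background of all autosomes, 21.6% of cell and chromosome pairs in Aphidicolin had a gain and 22.8% a loss, against 0.526% and 2.63% in DMSO. Gained and lost cells were equal in number in 5 of the 6 embryos, with 3 and 3 in Aphidicolin 1, 2, 3 and 6 and with 2 and 2 in Aphidicolin 5. In Aphidicolin 4 there was 1 gained and there were 2 lost cells.

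**Figure D1:**
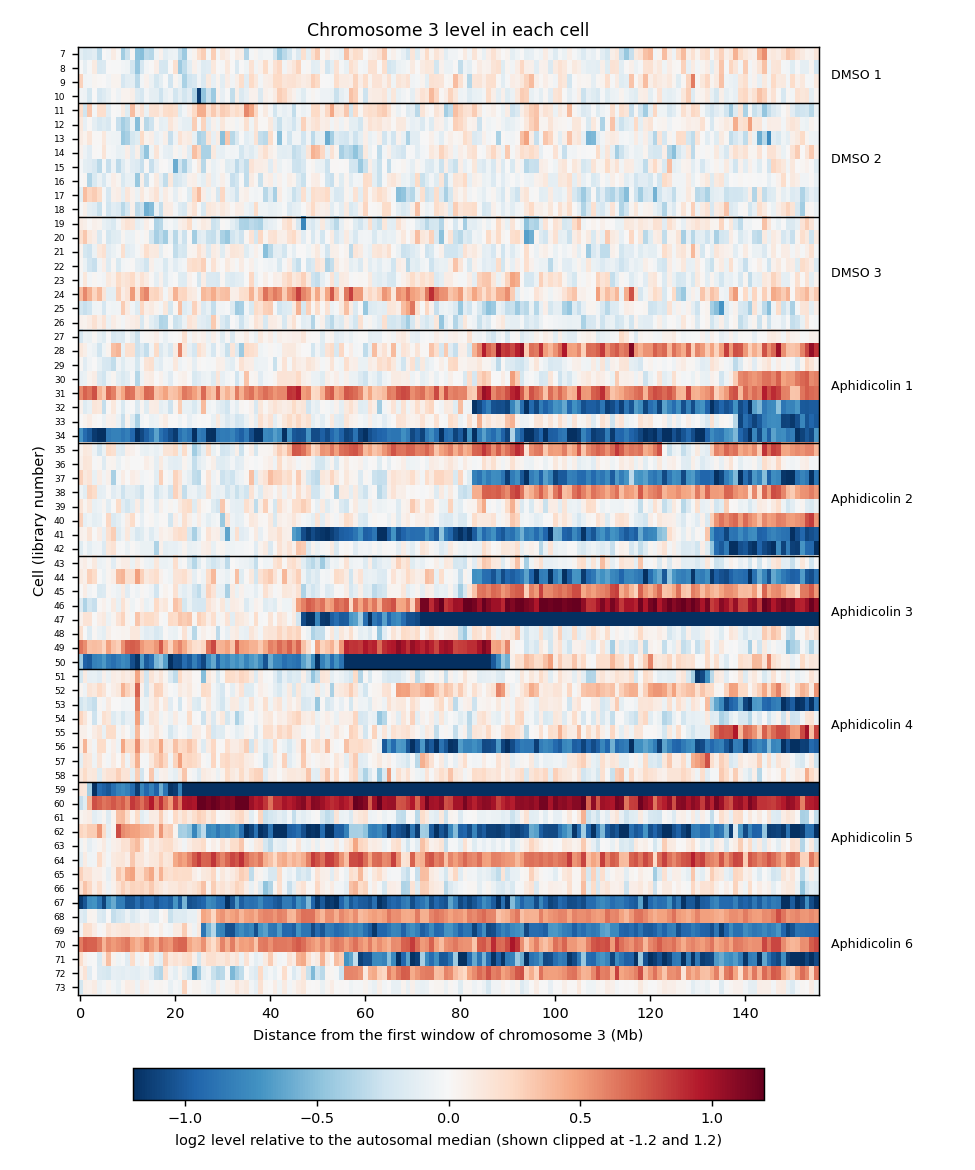
Level of chromosome 3 in each 1-Mb window (horizontal axis, distance from the first window in Mb) and cell (rows, grouped by embryo), as log2 relative to the autosomal median after the common profile was removed, with colours clipped at -1.2 and 1.2. Called blocks of red or blue lie in 31 Aphidicolin rows, mostly as pairs of opposite colour with the same edges, while the 20 DMSO rows hold no called block.

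The mean number of copies of chromosome 3 per embryo hardly moved, although the cells within an embryo spread widely. It was 2.02 ± 0.0216 (SD, n = 6 embryos, 2.00 to 2.06) in Aphidicolin and 2.01 ± 0.0301 (SD, n = 3 embryos, 1.98 to 2.04) in DMSO. The SD between the cells of an embryo was 0.645 ± 0.300 copies (SD, n = 6, 0.240 to 1.09) in Aphidicolin and 0.0932 ± 0.0763 copies (SD, n = 3, 0.0429 to 0.181) in DMSO. The lowest SD of an Aphidicolin embryo lay above the highest of a DMSO embryo. This spread contains the calls that chose the chromosome and was not tested.

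The chromosome-wide median of DMSO cells ran from -0.04 to 0.06 in DMSO 1, from -0.08 to 0.03 in DMSO 2 and from -0.07 to 0.29 in DMSO 3. Cell 24 of DMSO 3, at 0.29 or 2.44 copies, was the DMSO cell nearest to the gain limit. In Aphidicolin the cells' medians had their lowest, middle and highest values at -0.97, 0.00 and 0.60 in Aphidicolin 1. The same 3 values were -0.77, 0.00 and 0.48 in Aphidicolin 2, and -6.23, -0.01 and 0.85 in Aphidicolin 3. For Aphidicolin 4 they were -0.74, 0.03 and 0.16, for Aphidicolin 5 -7.37, 0.04 and 0.99, and for Aphidicolin 6 -0.94, 0.01 and 0.57. In each Aphidicolin embryo the middle value stayed near 2 copies. The lowest cell of each lay far below every DMSO cell. The 16 Aphidicolin cells without a call had medians from -0.04 to 0.16. Of these, 3 lay above 0.06, the second highest DMSO cell, and all lay below DMSO cell 24.

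Called segments fell at levels close to whole numbers of copies. There were 38 called segments. Of the 18 gains, 15 had a median of 2.97 copies (2.74 to 3.23, SD 0.112) and 3 lay between 3.77 and 4.26 copies. Among the 20 losses, 17 had a median of 1.05 copies (0.955 to 1.14, SD 0.0456). The other 3 losses fell below -3, at 0.0115 to 0.0155 copies, which is nearly no reads. Segments that were not called had a median of 2.02 copies in Aphidicolin (1.82 to 2.48, n = 43) and 1.98 copies in DMSO (1.89 to 2.44, n = 20). The called segments nearest to the limits were the proximal gain of Aphidicolin cell 49, at 0.46, and the proximal loss of its partner cell 50, at -0.81. Just outside the limits lay the proximal 21 Mb of cell 62, at 0.31, and DMSO cell 24, at 0.29 as a median over the whole chromosome.

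Whole-chromosome events, in which at least 90% of the windows were called in the same direction, were found in 6 cells of 3 embryos. Over all autosomes, 11% of cell and chromosome pairs in Aphidicolin carried a whole-chromosome event. In Aphidicolin 1, cell 31 had 3.03 copies along the whole chromosome and cell 34 had 1.02. In Aphidicolin 6, cell 70 had 2.97 copies and cell 67 had 1.04. Each of these pairs sums to about 4 copies, with 4.05 for cells 31 and 34 and 4.01 for cells 67 and 70. In Aphidicolin 5, cell 60 had 3.96 copies over the whole chromosome as a single called segment. Cell 59 of the same embryo had 1.07 copies over chr3:3000001-26000000 and 0.0115 copies over chr3:26000001-159000000. Over these stretches of cell 59, cell 60 stood at 3.20 and 4.01 copies, higher on the distal side. No break was called in cell 60, so the place of its rise was not located. The 133 Mb near 0 copies in cell 59 held 581 reads, 0.573% of what 2 copies would give.

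Partial events made up the remaining 25 cells, with 31 segments, 15 gained and 16 lost. Of these, 23 ran to the distal end (74.2%), 2 began at the proximal end and 6 lay in between. On the other autosomes of the Aphidicolin cells 185 of 299 partial segments (61.9%) reached the distal end, and the difference was not tested because cells of an embryo share events. The called cells per window therefore grew along the chromosome. In the first 20 windows 4 cells were gained and 4 lost, over the whole chromosome the median window had 9 gained and 10 lost, and in the last 20 windows the median was 14 gained and 15 lost.

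**Figure D2:**
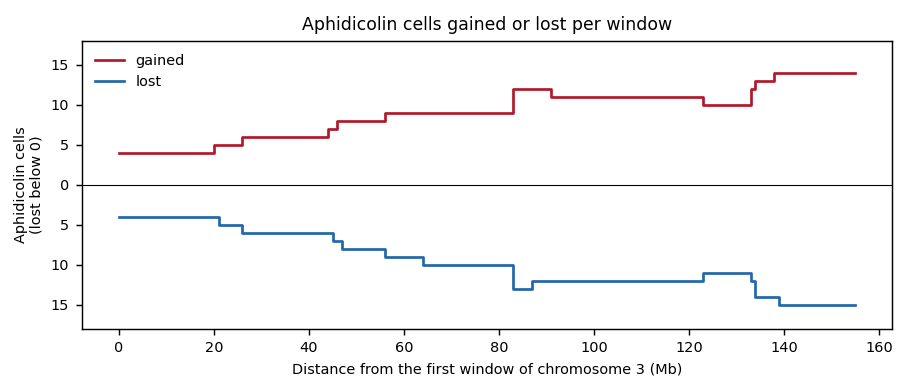
Number of Aphidicolin cells with a called gain (red, above 0) or a called loss (blue, below 0) in each 1-Mb window, against the distance from the first window of chromosome 3 in Mb. Both lines start at 4 cells and reach 14 gained and 15 lost cells at the distal end, and their steps fall at nearly the same places.

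Among the partial events the 5 gains of highest level were those of cell 46 distal to 75 Mb (4.26 copies), cell 49 distal to 59 Mb (3.77), cell 55 (3.23), cell 64 (3.11) and cell 46 proximal to 75 Mb (3.07). The 5 losses of lowest level were those of cell 50 distal to 59 Mb (0.0142 copies), cell 47 distal to 75 Mb (0.0155), cell 42 (0.955), cell 33 (0.997) and cell 62 (1.02). The longest gains were those of cell 64, over chr3:23000001-159000000, cell 68 (130 Mb) and cell 72 (100 Mb), and the longest losses those of cell 62 (135 Mb), cell 69 (130 Mb) and cell 71 (100 Mb). Gains and losses thus came in like lengths, and each of these 3 gains has its counterpart among the 3 losses in a cell of the same embryo.

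Breaks, the positions inside the chromosome where a called segment begins or ends, numbered 34 in 26 cells. Within embryos, breaks no more than 2 Mb apart joined into 17 sites, of which 12 were found in exactly 2 cells, 3 in 1 cell and 2 in more than 2 cells. In 8 of the 12 sites with 2 cells both breaks fell on the same window boundary, and in 4 they were 1 Mb apart. Over embryos the sites joined into 12 positions, and 4 of these were found in more than 1 embryo, each in at least 4 cells. Most sites held 2 cells, so a position shared by 2 embryos mostly holds 4 cells for that reason alone. The number of shared positions was not set against other autosomes or against sites placed at random, and was not tested.

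The break at 86 Mb was found in 6 cells of 3 embryos, always as a gained and a lost cell of the same embryo. In Aphidicolin 1, chr3:86000001-159000000 was at 3.04 copies in cell 28 and at 1.05 in cell 32. In Aphidicolin 2 it was at 2.93 copies in cell 38 and at 1.12 in cell 37, and in Aphidicolin 3 at 2.94 in cell 45 and 1.10 in cell 44. Proximal to the break these cells had between 1.93 and 2.10 copies. The step, taken as the median of 9 windows distal minus that of 9 windows proximal, each between 1 and 10 Mb away, was 0.73 to 0.76 in the 3 gained cells and -1.15 to -0.94 in the 3 lost cells. In the 20 DMSO cells it was -0.20 to 0.25. The common profile was higher in the distal than in the proximal windows of this comparison, but its steep rise lay proximal to the break. The DMSO median rose from -0.58 in the window from 81 Mb to 0.23 in that from 84 Mb. It was 0.30 and 0.23 in the windows just before and after 86 Mb. In the values as deposited the step at 86 Mb was 0.60 in the median DMSO cell (0.20 to 0.85), 1.10 to 1.29 in the gained and -0.37 to -0.15 in the lost cells. The gained and lost cells were chosen for their step, so their distance from the DMSO cells is a description. When values were segmented as deposited, 15 Aphidicolin cells had a break within 2 Mb of 86 Mb.

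The position of these breaks was refined from the difference between the gained and the lost cell at the deposited 200000-bp steps, in which a profile of the same size in both cells cancels. A ramp of 1 Mb, the width of a bin, was moved along in steps of 0.1 Mb. The best positions were 86.3 Mb in Aphidicolin 1, 86.2 Mb in Aphidicolin 2 and 86.3 Mb in Aphidicolin 3. Breaks in 3 separate embryos thus fell within 0.1 Mb of each other, which is finer than the 1-Mb width of a bin, and no error was attached to the fitted positions.

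A break close to 136.5 Mb was found in 6 cells of 2 embryos, again as gained and lost cells in equal number. In Aphidicolin 2, cell 40 had 2.95 copies and cell 42 had 0.955 over chr3:137000001-159000000, and cell 35 had 2.95 copies and cell 41 had 1.07 over chr3:136000001-159000000. In Aphidicolin 4, cell 55 had 3.23 copies over chr3:136000001-159000000 and cell 53 had 1.02 over chr3:137000001-159000000. The step was 0.58 to 0.78 in the gained cells and -1.002 to -0.89 in the lost cells, against -0.15 to 0.29 in DMSO. Fitted positions were 136.5 Mb for cells 40 and 42, 136.4 Mb for cells 35 and 41 and 136.5 Mb for cells 53 and 55. Without embryo Aphidicolin 2 the count of cells with this break was 2.

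A shorter event ended at the same place in Aphidicolin 4. With a minimum length of 5 Mb, cell 51 had a loss to 1.22 copies and cell 57 a gain to 2.82 copies over chr3:132000001-137000000, 5 windows in each. On both sides these cells had between 2.00 and 2.10 copies. They are below the length limit and outside the counts above; with them 8 Aphidicolin cells had a break near 136.5 Mb.

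**Figure D3:**
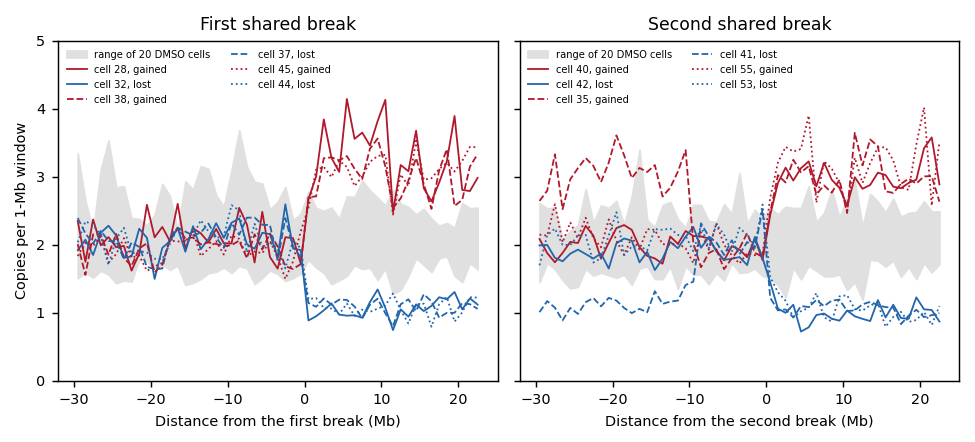
Copies per 1-Mb window against the distance in Mb from the break at 86 Mb (left) and from the one near 136.5 Mb (right), for the gained (red) and lost (blue) cell of 3 pairs each, drawn solid, dashed and dotted, with the range of the 20 DMSO cells in grey. The cells run together near 2 copies before the break and then separate to about 3 and 1 copies, except cells 35 and 41 on the right, whose other altered stretch ends 10 Mb before the break.

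The other positions seen in more than 1 embryo were 47 to 50 Mb and 59 Mb. The first was found in cells 35 and 41 of Aphidicolin 2 (fitted position 47.8 Mb) and in cells 46 and 47 of Aphidicolin 3 (49.4 Mb). The fitted positions differ by more than the width of a bin. At 59 Mb lay breaks of cells 49 and 50 of Aphidicolin 3 (59.1 Mb) and of cells 71 and 72 of Aphidicolin 6 (59.2 Mb). Positions found in a single embryo were 23 to 26 Mb in cells 59, 62 and 64, 29 Mb in cells 68 and 69, 75 Mb in cells 46 and 47, 126 Mb in cells 35 and 41, and 141 to 142 Mb in cells 30 and 33. Breaks at 67, 90 and 94 Mb were seen in 1 cell each.

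Break sites did not sit at one level of the common profile. High values of this profile in DMSO mark windows with more reads in cells collected in G1 to early S phase. The median DMSO level at the 17 sites was -0.19 (-0.65 to 0.40), and over all 155 boundaries between windows it was also -0.19 (-0.70 to 0.46). The 86 Mb position was high in this order, at the 91.6th percentile of boundaries. The position near 136.5 Mb was in the middle, at the 50.97th percentile, and the 47 to 50 Mb position was low, at the 11.6th. These are descriptions of a few positions and were not tested.

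Of the 31 called cells, 30 could be set against a cell of the same embryo with the opposite call over at least 50% of both segments. These 30 cells formed 30 such pairs, since a cell can be opposite to more than 1 other cell, so the overlap alone does not single out a counterpart. In 17 of the pairs the breaks did not all match. In 13 pairs all breaks matched within 2 Mb, counting the whole-chromosome pairs 31 and 34 and 67 and 70, which have no break to match. For these 13 pairs the copies of both cells were added over each stretch. The sum over altered stretches had a median of 4.05 copies and a mean of 4.07 ± 0.102 (SD, n = 15 stretches, 3.90 to 4.27). Over stretches without a call the median was 4.02 copies (n = 12, 3.91 to 4.67). The opposite partner pairs whose breaks did not all match are left out of these values. Cells 49 and 50 summed to 3.89 copies over the proximal gain and to 3.78 over the distal gain of cell 49, below the range above, and cells 59 and 60 to 4.28 and 4.02. Among the stretches without a call, the highest sum came from the proximal 21 Mb of cells 62 and 64, which had 2.48 and 2.19 copies without a call. The sums are drawn from pairs chosen for opposite calls.

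Several pairs combined more than 1 break. Cells 35 and 41 of Aphidicolin 2 were altered over the stretch from 47 or 48 Mb to 126 Mb, at 3.07 and 1.06 copies, back at 1.88 and 2.04 copies over chr3:126000001-136000000, and altered again to the distal end. Cells 46 and 47 of Aphidicolin 3 had 3.07 and 1.03 copies from 49 or 50 Mb to 75 Mb, and 4.26 and 0.0155 copies over chr3:75000001-159000000. Cells 49 and 50 of the same embryo had 2.74 and 1.14 copies over chr3:3000001-59000000. Distal to 59 Mb they had 3.77 copies up to 94 Mb in cell 49 and 0.0142 copies up to 90 Mb in cell 50, and no call beyond. In both pairs the lost cell held nearly no reads where the gained cell was near 4 copies. The stretches near 0 held 563 reads in cell 47 and 250 in cell 50, which are 0.773% and 0.708% of the reads of 2 copies.

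The remaining pairs with matching breaks had a single break each. Cells 30 and 33 of Aphidicolin 1 had 2.995 and 0.997 copies distal to 141 or 142 Mb. In Aphidicolin 5, cells 64 and 62 had 3.11 and 1.02 copies distal to 23 or 24 Mb. In Aphidicolin 6, cells 68 and 69 had 2.88 and 1.09 copies distal to 29 Mb, and cells 72 and 71 had 2.90 and 1.06 copies distal to 59 Mb. Cell 56 of Aphidicolin 4 was the called cell without an opposite call: it had 1.05 copies over chr3:67000001-159000000. Its partner by the other chromosomes, cell 52, had 2.44 copies there, under the gain limit at 0.29, and the sum was 3.49 copies.

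Whether cells that mirror each other on chromosome 3 are the same that do so elsewhere was tested with a choice of partners that did not use chromosome 3. In each embryo, 2 cells were called partners if each had its lowest correlation with the other over the 18 other autosomes. This gave 20 partner pairs and 141 other pairs in the 6 Aphidicolin embryos. On chromosome 3 the mean correlation of partners was -0.38 in Aphidicolin 1, -0.43 in Aphidicolin 2, -0.84 in Aphidicolin 3, -0.27 in Aphidicolin 4, -0.01 in Aphidicolin 5 and -0.48 in Aphidicolin 6. That of other pairs was between 0.04 and 0.28 in the same embryos. Partners were lower in 6 of 6 embryos, by -0.497 ± 0.218 (SD, n = 6). An exact two-sided sign-flip permutation test over embryos against 0 gave p = 0.03125, the smallest that 6 embryos can give. A value of 0 is not the level without calls, since partners are picked as the least alike pairs and DMSO partners were also lower than other pairs. The correlations also contain the calls for which chromosome 3 was picked. The test against 0 therefore cannot decide whether partners mirror each other beyond that choice. With values as deposited the difference was -0.288 and the same exact test gave p = 0.125.

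DMSO embryos had 3 partner pairs by the same rule, 1 in each, and 59 other pairs. Partners were lower by -0.237 ± 0.0621 there (SD, n = 3), with -0.20, -0.20 and -0.31 in DMSO 1, 2 and 3, and the exact sign-flip test over 3 embryos gave p = 0.25, the smallest possible. In Aphidicolin 4 and 5 the difference was -0.32 and -0.29, near the DMSO values, and in the other 4 embryos it ran from -0.90 to -0.46. Between treatments it differed by -0.26, with 5 of 6 Aphidicolin embryos below all DMSO embryos. An exact two-sided permutation test over the 84 splits of the embryos, added after seeing the data, gave p = 0.0714, which did not pass the threshold of 0.05. Chromosome 3 was picked for its calls in Aphidicolin cells and the correlations contain these calls. The test therefore cannot decide whether the treatments differ, and the difference is a description. DMSO partners had correlations on chromosome 3 from -0.26 to 0.09 and Aphidicolin partners from -0.91 to 0.57.

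The 20 partner pairs of Aphidicolin embryos fell into 3 kinds by their calls on chromosome 3. In 14 pairs both cells had a call, opposite in each of these pairs, and their correlations had a median of -0.75 (-0.91 to 0.29). The values above 0 belong to the whole-chromosome pairs, 31 and 34 at 0.29 and 67 and 70 at 0.22, since a correlation does not register an offset of the entire chromosome. Correlated about 0 instead of about each cell's mean, the 14 pairs ranged from -0.98 to -0.70. In 5 pairs neither cell had a call, with correlations from -0.12 to 0.57, and the last pair was that of cells 52 and 56, at -0.48. Of the 13 pairs counted as matching, which include these whole-chromosome pairs without a break, 12 were partners. Cells 35 and 41 were the exception: their breaks match on chromosome 3, but over the other autosomes they were not each other's lowest.

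**Figure D4:**
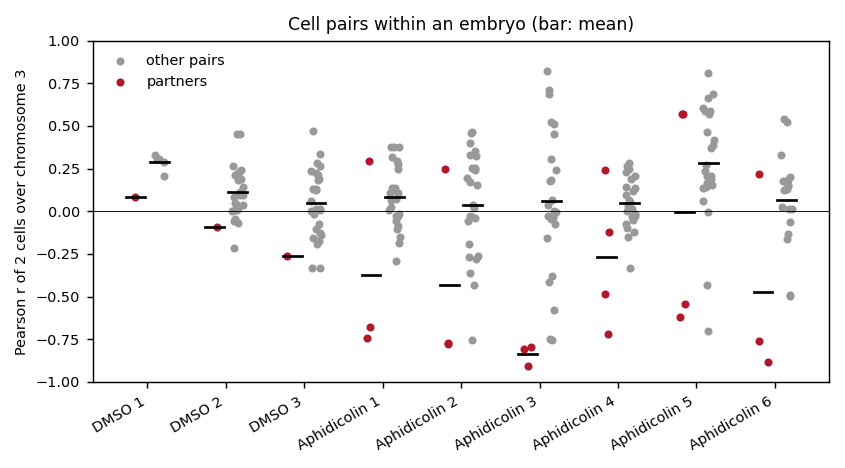
Pearson correlation over the chromosome 3 windows for every pair of cells within an embryo, with partners chosen on the other 18 autosomes in red, all other pairs in grey, and black bars at the means. The bar of partners lies below that of other pairs in all 9 embryos, and the lowest point, at -0.91, is a partner pair of Aphidicolin 3.

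The proximal stretch from 12 to 16 Mb was compared between embryos because it was singled out in earlier results. After removal of the common profile its mean level was -0.17, -0.13 and 0.06 in DMSO 1, 2 and 3. In Aphidicolin 1 to 6 it was -0.15, -0.03, 0.04, 0.19, 0.20 and -0.07. The groups overlapped, and the highest DMSO embryo was passed by 2 of 6 Aphidicolin embryos. The means were 0.03 ± 0.14 (SD, n = 6) and -0.08 ± 0.12 (SD, n = 3), a difference of 0.11, which was 0.07 without DMSO 1 and 0.18 without DMSO 3. As deposited, the means were -0.24 ± 0.06 and -0.54 ± 0.19, a difference of 0.30, and the highest DMSO embryo was passed by 5 of 6. The part of the common profile in this difference was not tested.

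Window by window, the difference in the stretch was 0.11 at chr3:12000001-13000000, 0.08 at chr3:13000001-14000000, 0.02 at chr3:14000001-15000000 and 0.22 at chr3:15000001-16000000. None passed in limma's test, whose adjusted p in these windows was 0.659 to 0.889. At the last window the embryos differed from each other within a treatment. All 8 cells of Aphidicolin 4 were above 0 there, from 0.29 to 0.70, while Aphidicolin 1 had a median of -0.26 and DMSO 1 one of -0.39.

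**Figure D5:**
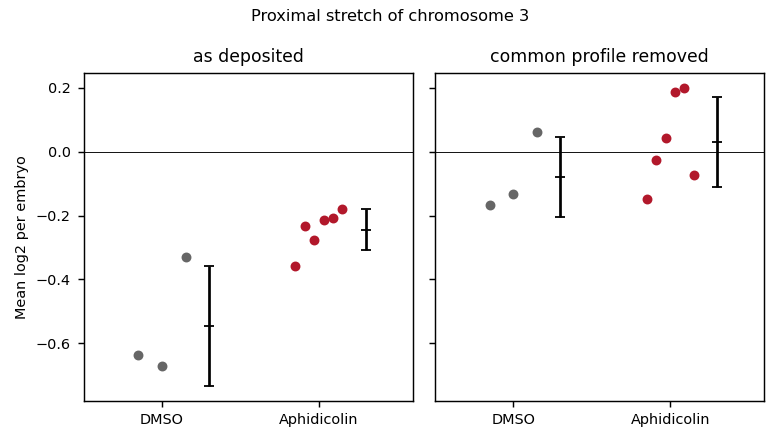
Mean log2 level of chromosome 3 from 12 to 16 Mb in each embryo (points), for DMSO and Aphidicolin, in the values as deposited (left) and with the common profile removed (right); bars give the mean and SD over embryos. On the left 5 of 6 Aphidicolin embryos lie above all DMSO embryos, and on the right 2 of 6 do.

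Across the whole chromosome, embryo means of Aphidicolin and DMSO were compared in each window with limma, fitted over all 2397 autosomal windows. On chromosome 3 0 of 156 windows had an adjusted p under 0.05, as in 0% of all windows, and 8 had an unadjusted p under 0.05, against 145 of the 2397 windows over all autosomes. The lowest adjusted p was 0.659. Differences ran from -0.58 to 0.22 with a median of -0.31, where the median over all autosomal windows was -0.12. The chromosome 3 median was -0.20 without Aphidicolin 5, and the highest difference was 0.14 without DMSO 1. Means of log2 values are drawn down by losses more than up by gains, and the near-0 stretches weigh most. With called chromosomes set to missing, the median difference on chromosome 3 was 0.02. A fit on the cells themselves, with embryos as random blocks, gave 0 windows on chromosome 3 too, against 0.0417% of all windows. No window of chromosome 3 passed between the embryo means, while the cells within the embryos lie far apart.

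The common profile of chromosome 3 rose and fell at much the same places in both treatments, with a smaller SD over windows in the uncalled Aphidicolin cells. Between the median of DMSO cells and that of the 16 Aphidicolin cells without a call, the correlation over 156 windows was 0.92, a description over neighbouring windows of the same cells. Its SD over windows was 0.35 in DMSO and 0.20 in these Aphidicolin cells. As a slope on the common profile, chromosome 3 had 1.27, 1.47 and 0.93 in DMSO 1, 2 and 3. In Aphidicolin 1 to 6 it had 0.57, 0.56, 1.01, 1.22, 0.99 and 0.31, which overlaps the DMSO values. The difference was -0.448, with p = 0.131 in an exact two-sided permutation test over the 84 splits of 9 embryos and 0.146 after Benjamini-Hochberg adjustment over 19 autosomes. In the same embryos the mean slope over the other autosomes ran from 1.06 to 1.27 in DMSO and from 0.36 to 1.18 in Aphidicolin.

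Cells with a call on chromosome 3 also carried calls elsewhere. The number of other autosomes called had a median of 7 (3 to 17) in the 31 called Aphidicolin cells and of 4.5 (0 to 9) in the 16 without a call. The read total had a median of 1.95 M (0.751 to 2.69 M) in the called and 2.09 M (1.58 to 2.56 M) in the other cells. Noise between neighbouring windows was 0.125 and 0.117 on the log2 scale. The part of depth in the calls was not tested.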

How the data were processed

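The authors deposited log2 values per cell, relative to that cell's median, in bins at steps of 200000 bp; the build was mm9, per the submitters' processing notes. For aligner and read filters the sources used here give nothing. The metadata, per the file headers, give the embryo and collection window (other kinds of columns) and a noise score with pass marks, a score of 1 or 0; all 67 cells passed. Each value could be turned back into whole reads within 0.01 reads, with bins acting as overlapping 1-Mb windows. Bins empty in at least 50% of cells were left out, and other empty bins were set to 0.5 reads.

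Medians over 1-Mb windows were centred per cell. The mean of both treatments' medians was scaled to each cell with a Huber regression, then subtracted. Chromosomes were segmented by penalised least squares (penalty 4 times the noise variance times the natural log of the number of windows, values below -3 set to -3), and steps under 0.35 were merged. On simulated gains and losses put on chromosome 3 of the 20 DMSO cells, 20 of 20 were called and 18 were placed within 2 Mb. Each simulated event changed a single copy and ran to the distal end. Some began at the first window, where there was no break to place. Interstitial and proximal events, and distal ones as short as the shortest called, were not simulated. Embryo means were tested with limma 3.58.1 in R (Benjamini-Hochberg), and single values with exact permutation tests.

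The chromosome, positions and lists were chosen with earlier results of these data known. Named in the text are all whole-chromosome cells, the windows from 12 to 16 Mb, segments below -3 and DMSO cells with a call (there were 0). So are break positions shared by at least 4 Aphidicolin cells within 2 Mb, besides 86 Mb and 136.5 Mb, which earlier results had named. The 5 partial gains and 5 partial losses of largest change in level are named too. Of the opposite pairs with at least 50% reciprocal overlap, those that were partners or matched in their breaks are named, and the others only counted. The short event of cells 51 and 57, DMSO cell 24, the breaks in fewer cells and cell 56 were added after their values were seen. No sequence or gene is given, since no genome of the build was at hand. Nothing states whether the embryos came from separate litters, so p-values measure the spread between these embryos. Alternatives were values as deposited, a profile from DMSO alone, a minimum length of 5 Mb, limits of 0.42 and -0.6, centring on the most common level, called cells or chromosomes set to missing, and each embryo left out.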

Additional observations from a re-analysis of the deposited data

Results flagged for a closer look

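A cell's chromosome-wide median was set against the other cells of its embryo in 9 embryos, and 4 cells stood apart by Dixon's ratio. The ratio's chance rate of about 1 in 20 groups assumes normally distributed values. These levels fall in steps of copies, and cells 47, 56 and 59 carry called losses on the chromosome picked for its calls. That rate therefore does not apply, and the flags are descriptions. DMSO cell 24 was at 0.29, where the other cells of DMSO 3 were between -0.07 and 0.01. Aphidicolin cell 47 was at -6.23, against -0.67 to 0.85 in the other cells of Aphidicolin 3. Aphidicolin cell 56 was at -0.74, against -0.03 to 0.16 in the others of Aphidicolin 4. Aphidicolin cell 59 was at -7.37, against -0.92 to 0.99 in the others of Aphidicolin 5.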

How the results depend on the processing

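No paired analysis was possible because the treatments share no library number in the labels, and the embryo numbers used here are only names. All 31 called cells kept their call under each alternative of the calling. With values as deposited, without removal of the common profile, 14 DMSO and 37 Aphidicolin cells had a call, 15 Aphidicolin cells had a break near 86 Mb, the difference at 12 to 16 Mb was 0.30, and the partner difference was -0.288. Leaving out each embryo in turn gave 2 to 6 cells with a break near 136.5 Mb, the 2 without Aphidicolin 2. The partner difference then ran from -0.539 to -0.417, with p = 0.0625, the smallest that 5 embryos can give in the exact sign-flip test. As above, partners are picked as the least alike pairs and the correlations contain the calls. The test therefore cannot decide whether partners mirror each other beyond that choice. Correlated about 0, an alternative chosen after seeing the data, the partner difference was -0.675. On chromosome 3 the windows past limma's threshold stayed at 0 in every fit run; over all autosomes 1 window passed in the fit on cells with embryos as random blocks. Of 96 alternative values of single cells' medians, 95 moved by less than the spread and 1 by more (cell 53, as deposited). Counting error of 0.05 per window and the 10-Mb minimum limit what short or shallow events can be seen. The causes were not tested.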
